A study of Bos taurus with 24 samples.

Results

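The muscle miRNAs bta-miR-1, bta-miR-133a, bta-miR-133b and bta-miR-206 were sought by these exact names among the 796 miRNAs listed in the deposited tables of mammary gland small RNA. Of the 4 names, 3 had a row in both tables, and bta-miR-206 had no row of that name and was not analysed here. The prefix bta, for Bos taurus, is left out below. The level and spread were followed in all 22 libraries, by breed and period.

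MiR-1, miR-133a, miR-133b and miR-206 are known as myomiRs, miRNAs made at a high level in striated muscle. MiR-1 and miR-206 share their seed, the part of a miRNA that pairs with its targets, and promote the differentiation of muscle cells. MiR-133a and miR-133b share another seed, differ from each other at the 3′ end, and are known for roles in the growth of myoblasts. The lactating mammary gland holds contractile cells of its own, the myoepithelial cells around the alveoli and the smooth muscle of vessels and ducts, and smooth muscle also makes miR-1 and miR-133a, at a lower level than striated muscle.

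Biopsies of the mammary gland were taken from 5 Holstein (HOLS) and 6 Montbéliarde (MONT) cows, all multiparous and in midlactation, at day 0 before a feed restriction (CONT) and at day 6 of it (REST), from the rear udder on alternate sides. The restriction was 60% of net energy in the deposited labels and is given otherwise in the text of the study, and all cows of both breeds received it, so that no group of unrestricted cows stands beside REST and the period cannot be told apart from the order of the biopsies. Each biopsy gave a library of its own, which made groups of 5 HOLS CONT, 5 HOLS REST, 6 MONT CONT and 6 MONT REST. The labels give 24 samples, and the 2 samples of a further HOLS cow had no column and were not analysed here.

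The total of miRNA counts per library lay between 6087865 and 18913916, and no 2 of the 22 libraries held identical counts. Levels are given as counts per 1000000 miRNA counts of a library (CPM), and changes as log2 values. The biopsies were bulk tissue, so fewer cells of a type and less RNA per cell cannot be told apart. In MONT, both libraries of cow 9615 deviated from their period means in opposite directions (r = -0.26 across 388 miRNAs), whereas the other 10 cows had r from 0.08 to 0.74, and the effect of leaving this cow out is given beside the results it enters. The 6 epithelial miRNAs on the list of markers (the miR-200 family with miR-141 and miR-429, and miR-205) had counts in 22 of 22 libraries, with a summed level of 12719 to 48681 CPM.

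MiR-133a was the most abundant of the muscle miRNAs, with a mean of 82.7 CPM over the 22 libraries and rank 124 among the 796 miRNAs. MiR-1 followed with 4.51 CPM and rank 252, and miR-133b with 0.54 CPM and rank 396. The order miR-133a, miR-1, miR-133b was the same in each of the 4 groups, and the ranges of the 3 miRNAs over the 22 libraries did not overlap except for the lowest miR-1 library and the highest miR-133b library (1.24 and 1.32 CPM). Together they reached from 34.0 to 168 CPM. These are levels after adapter ligation and PCR, whose efficiency differs between miRNAs and was not corrected.

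In the 5 HOLS CONT libraries, miR-133a was at 89.0, 62.8, 62.6, 161 and 53.7 CPM in cows 1155, 1165, 2182, 8200 and 9195. In HOLS REST, the same cows had 32.6, 51.9, 63.6, 106 and 63.8 CPM. Cow 8200 had the highest level in both periods, and cow 1155 went from the second highest level in CONT to the lowest in REST. In MONT CONT, miR-133a had a lowest value of 54.8, a median of 92.6 and a highest value of 136 CPM, and in MONT REST these were 37.4, 89.6 and 129 CPM. The group means were 85.8 ± 44.1 (SD, n = 5) in HOLS CONT, 63.6 ± 27.0 (n = 5) in HOLS REST, 90.9 ± 32.2 (n = 6) in MONT CONT and 88.0 ± 36.4 (n = 6) in MONT REST. The ranges of the 4 groups overlapped. Without cow 9615, the MONT means of miR-133a were 92.7 ± 35.7 in CONT and 98.1 ± 29.8 CPM in REST (n = 5).

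MiR-1 was at 4.02, 2.78, 1.61, 5.61 and 2.56 CPM in HOLS CONT and at 1.24, 2.79, 2.02, 7.11 and 5.52 CPM in HOLS REST, in the same order of cows. Cow 8200 again had the highest level in both periods, and cow 1155 again had the lowest in REST. In MONT CONT its lowest, median and highest values were 1.90, 5.75 and 8.34 CPM, and in MONT REST 3.33, 4.61 and 8.25 CPM. Its means were 3.32 ± 1.54 (SD, n = 5) and 3.73 ± 2.48 (n = 5) CPM in HOLS CONT and REST, and 5.29 ± 2.60 (n = 6) and 5.38 ± 1.98 (n = 6) CPM in MONT CONT and REST. The MONT means lay above the HOLS means by less than the SD of the MONT groups, and the ranges of all groups overlapped. Without cow 9615 the MONT means of miR-1 were 4.91 ± 2.70 and 5.79 ± 1.90 CPM (n = 5), and those of miR-133b 0.64 ± 0.29 and 0.65 ± 0.39 CPM. The counts behind these values were 12 to 156 per library. For 12 counts, in HOLS CONT cow 2182, the exact 95% binomial interval was 0.83 to 2.82 CPM. Such intervals cover counting error only, since PCR copies of a molecule were counted as separate reads.

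MiR-133b had only 1 to 25 counts per library. It was at 0.60, 0.28, 0.54, 0.76 and 0.48 CPM in HOLS CONT and at 0.17, 0.36, 0.21, 0.50 and 0.42 CPM in HOLS REST. Of the 5 HOLS cows, 4 had a lower value in REST, and the ranges of both periods overlapped. In MONT CONT the lowest, median and highest values were 0.16, 0.71 and 0.88 CPM, and in MONT REST 0.34, 0.53 and 1.32 CPM. The lowest of them, in MONT CONT cow 5663, was a single read (1 count) with an interval of 0.0042 to 0.92 CPM, which holds every other value of miR-133b except the 1.32 CPM.

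**Figure D1:**
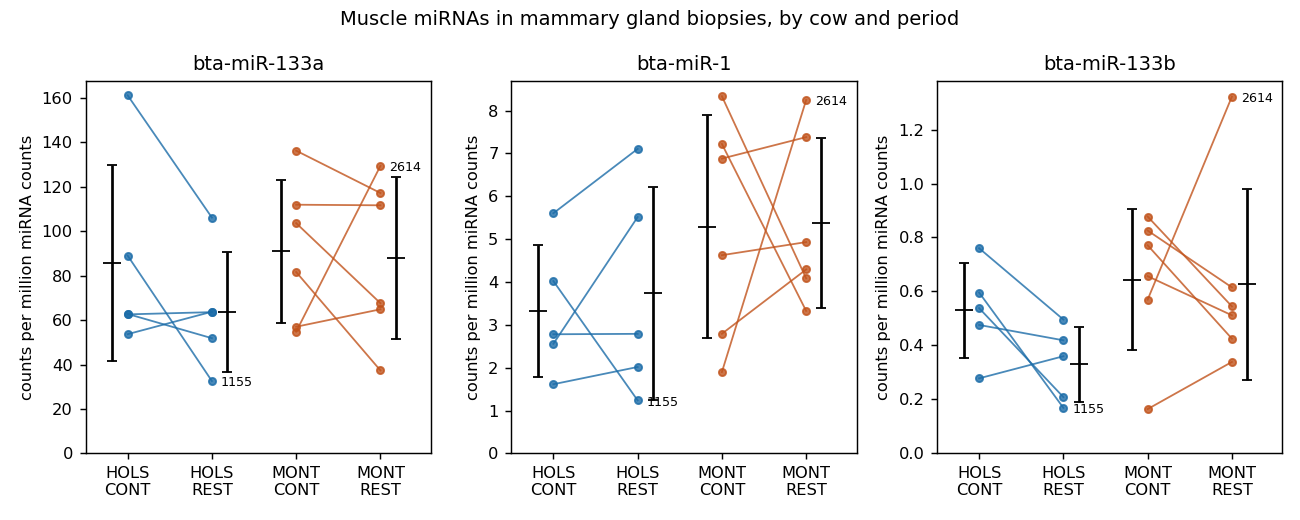
Level of miR-133a, miR-1 and miR-133b in CPM (vertical axes, from 0, a scale for each miRNA) in the 22 libraries by breed and period. Points are libraries, lines join both libraries of a cow, and black bars give the mean ± SD of a group. The groups overlap for each miRNA, and the lines cross, with cow 1155 falling and cow 2614 rising for all 3 miRNAs.

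For the effect of the feed restriction in HOLS, miR-1 had a log2 fold change of 0.32 (SE 0.45, 95% interval -0.66 to 1.30) and miR-133a one of -0.31 (SE 0.35, 95% interval -1.05 to 0.44). Adjusted by Benjamini-Hochberg, the p of the quasi-likelihood test in edgeR was 0.732 for miR-1 and 0.649 for miR-133a. Thus 0 of the 2 muscle miRNAs tested passed the threshold of 0.05, beside 2.41% of all 374 miRNAs tested in HOLS. Neither miRNA had an unadjusted p under 0.05, and neither passed with DESeq2, limma-voom or the cow as a block, the last of which called 16.3% of the miRNAs in HOLS. The intervals of the fit without a block, which leaves out the pairing by cow, hold no change. They also hold changes of more than 1.05 on the log2 scale, a rise for miR-1 and a fall for miR-133a. With the cow as a block the standard errors were smaller, with log2 fold changes of 0.23 (SE 0.29) for miR-1 and -0.24 (SE 0.19) for miR-133a. MiR-133b did not pass the filter on low counts. When no filter was used its log2 fold change was -0.51 (SE 0.43, 95% interval -1.43 to 0.40) with an edgeR adjusted p of 0.617, in a fit that called 0.663% of 754 miRNAs.

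In MONT the log2 fold changes lay closer to 0, with 0.04 (SE 0.38, 95% interval -0.78 to 0.86) for miR-1 and -0.04 (SE 0.31, 95% interval -0.71 to 0.62) for miR-133a. The edgeR adjusted p was 0.952 and 0.941. None of the 2 passed, beside 0% of the 349 miRNAs tested in MONT by edgeR, of which 47 had an unadjusted p under 0.05, and DESeq2, limma-voom and edgeR with cow as a block also called 0. Without cow 9615, edgeR called 46 miRNAs in MONT, none of them miR-1 (log2 fold change 0.22, adjusted p 0.729) or miR-133a (0.06, adjusted p 0.901). MiR-133b, in the fit with no filter (0% called of 759), had a log2 fold change of 0.04 (SE 0.43, 95% interval -0.87 to 0.96), and of 0.08 (SE 0.50) without cow 9615.

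The difference between the breeds in the change from CONT to REST was smaller than its standard error for both miRNAs tested. This difference (MONT change minus HOLS change) was -0.21 (SE 0.64, 95% interval -1.54 to 1.11) for miR-1 and 0.34 (SE 0.50, 95% interval -0.71 to 1.38) for miR-133a, both with an edgeR adjusted p of 0.991. The interaction was called by edgeR for 0% of the 388 miRNAs tested, 3 of which had an unadjusted p under 0.05, and DESeq2 and limma-voom called 0 as well. For miR-133b it was 0.58 (SE 0.62, 95% interval -0.69 to 1.85) without the filter, where 0% of 796 were called. Without cow 9615 the differences were -0.03, 0.44 and 0.64 for miR-1, miR-133a and miR-133b.

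Between the breeds, miR-1 was higher in MONT by 0.67 (SE 0.46, 95% interval -0.29 to 1.62) on the log2 scale in CONT and by 0.45 (SE 0.45, 95% interval -0.48 to 1.39) in REST, differences that did not pass the test (edgeR adjusted p = 0.405 and 0.490). MiR-133a differed by 0.04 (SE 0.36, 95% interval -0.70 to 0.78) in CONT and by 0.38 (SE 0.36, 95% interval -0.36 to 1.12) in REST (edgeR adjusted p = 0.963 and 0.464). In these comparisons 7.47% of 388 miRNAs were called in CONT and 13.7% in REST, and 0 of the 2 muscle miRNAs were among them in either period. The largest fitted difference was that of miR-133b in REST, at 0.85 (SE 0.44, 95% interval -0.05 to 1.74) in the fit with no filter, with an edgeR p of 0.0631 and an adjusted p of 0.289, beside 4.9% called of 796. In CONT its difference was 0.26 (SE 0.44, 95% interval -0.64 to 1.17), beside 0.377% called. Without cow 9615 the differences of miR-1, miR-133a and miR-133b were 0.55, 0.08 and 0.24 in CONT and 0.52, 0.52 and 0.88 in REST, with edgeR adjusted p from 0.258 to 0.942. The study reports that a smaller share of raw reads was left after cleaning in MONT than in HOLS, in both periods. Breed and this library quality cannot be told apart in these comparisons.

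**Figure D2:**
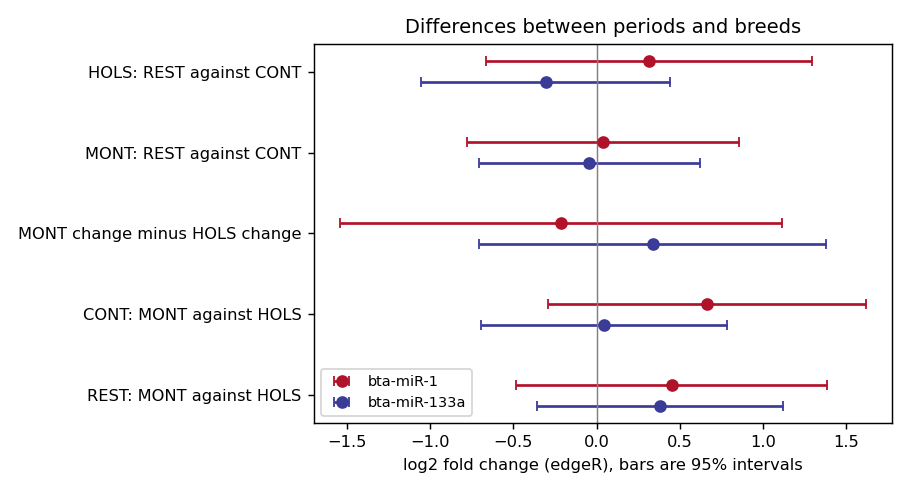
Log2 fold changes of miR-1 and miR-133a fitted by edgeR (horizontal axis) for the 5 comparisons (vertical axis), with bars for 95% intervals. All 10 intervals include 0, the widest being those of the difference between the changes of the breeds, -1.54 to 1.11 for miR-1.

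The cows moved in both directions. From CONT to REST within a cow, on log2(CPM + 1), miR-1 was higher in REST in 4 of 5 HOLS cows and 4 of 6 MONT cows, with mean changes of 0.04 ± 0.75 (SD, n = 5) and 0.09 ± 0.96 (n = 6). The two-sided exact paired permutation test gave p = 0.812 in HOLS and p = 0.875 in MONT. MiR-133a was lower in REST in 3 of 5 HOLS cows and 4 of 6 MONT cows, with mean changes of -0.40 ± 0.65 (n = 5, exact p = 0.25) and -0.09 ± 0.79 (n = 6, exact p = 0.781). MiR-133b was lower in 4 of 5 HOLS and 4 of 6 MONT cows, with mean changes of -0.20 ± 0.22 (n = 5, exact p = 0.188) and -0.02 ± 0.34 (n = 6, exact p = 0.875). Scaled by DESeq2 size factors in place of library totals, miR-1 was higher in 3 of 6 MONT cows, miR-133a was lower in 2 of 5 HOLS and 3 of 6 MONT cows, and miR-133b was lower in 3 of 5 HOLS cows. The mean changes in HOLS were then 0.17 for miR-1 (exact p = 0.562) and -0.23 for miR-133a (exact p = 0.5). With a pseudocount of 0.1 in place of 1, the mean change of miR-133b in HOLS was -0.56 ± 0.67 (n = 5, exact p = 0.188), so its size depends on the pseudocount, and 1 exceeds the levels. The smallest p this test allows is 0.0625 with 5 cows and 0.0312 with 6 cows. These 6 tests are not adjusted for each other, since none passed.

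A single cow of each breed had the largest changes. In HOLS cow 1155, miR-133a fell from 89.0 to 32.6 CPM, miR-1 from 4.02 to 1.24 CPM and miR-133b from 0.60 to 0.17 CPM, log2 changes of -1.42, -1.17 and -0.45. In MONT cow 2614, miR-133a went from 54.8 to 129 CPM, miR-1 from 1.90 to 8.25 CPM and miR-133b from 0.57 to 1.32 CPM, log2 changes of 1.22, 1.67 and 0.56. Without cow 1155 the mean change of miR-133a in HOLS was -0.15, and that of miR-1 was 0.34. Without cow 2614 the mean changes in MONT were -0.35 for miR-133a, -0.23 for miR-1 and -0.14 for miR-133b. Without cow 9615 they were 0.12 for miR-133a, 0.29 for miR-1 and -0.0011 for miR-133b, so that the mean of miR-133a changed its sign. MiR-1 and miR-133a moved in the same direction in 7 of the 11 cows, and all 3 miRNAs did so in 5.

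No relation between the level of a cow in CONT and its level in REST was detected for the muscle miRNAs. Over the 11 cows, the Pearson correlation between both periods was 0.15 for miR-1 (permutation p = 0.653, adjusted p = 0.754), 0.31 for miR-133a (permutation p = 0.350, adjusted p = 0.546) and 0.26 for miR-133b (permutation p = 0.431, adjusted p = 0.605), with the adjustment over the 389 miRNAs compared. Spearman's rho was 0.05 (permutation p = 0.879, adjusted p = 0.933), 0.22 (p = 0.522, adjusted p = 0.680) and 0.58 (p = 0.0668, adjusted p = 0.229). Without the 2 cows farthest from the median, r was -0.03, -0.11 and 0.12. Among the 6 MONT cows alone, r was -0.48 (exact p = 0.319) for miR-1, 0.16 (exact p = 0.771) for miR-133a and 0.18 (exact p = 0.650) for miR-133b, and HOLS, with 5 cows, was below the minimum of 6 set for a correlation. Scaled by DESeq2 size factors, r over the 11 cows was 0.14, 0.19 and 0.12 and rho -0.02, 0.03 and 0.30 for the 3 miRNAs, and r of miR-133a in MONT was -0.12 (exact p = 0.8). Without cow 9615, r over 10 cows was 0.22, 0.34 and 0.25 (adjusted p = 0.657, 0.466 and 0.601 from permutation). The median r of all miRNAs was 0.43, and the muscle miRNAs stood at the percentiles 17.99, 36.2 and 30.3 of them. The mean size of the change between the 2 biopsies of a cow was 0.61 for miR-1, 0.54 for miR-133a and 0.26 for miR-133b on log2(CPM + 1). The SDs between the means of cows were 0.48, 0.49 and 0.19. A mean of 2 libraries varies less than a single library, so these sizes cannot be compared directly.

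The spread of miR-1 and miR-133a over the libraries was large among miRNAs. The highest library had 6.73 times the CPM of the lowest for miR-1 and 4.95 times for miR-133a. On log2(CPM + 1) the SD over the 22 libraries was 0.62 for miR-1 and 0.60 for miR-133a, at the percentiles 83.0 and 80.9 of the 388 miRNAs tested, whose median was 0.42. Of 90 miRNAs whose mean level was within a factor of 2 of that of miR-1, 66 had a smaller SD, and of 53 near miR-133a, 42 did. Some markers of other cell types spread as widely. Of the most abundant on each list, miR-141 (epithelium), miR-199a-3p (fibroblasts) and miR-451 (red blood cells) stood at the percentiles 89.9, 85.8 and 94.3. MiR-126-5p (endothelium), miR-142-5p (leukocytes) and miR-143 (smooth muscle) stood at 3.09, 42.0 and 33.8. The biological coefficient of variation that edgeR fitted within the groups, from which counting error is taken out, was 0.486 for miR-1 and 0.385 for miR-133a in HOLS, against a median of 0.199, and 0.458 and 0.386 in MONT, against a median of 0.320. In HOLS these stood at the percentiles 97.6 and 93.3, and in MONT at 82.2 and 71.1. Counting error alone gives a coefficient of variation of 2.02% to 5.85% at the counts of miR-133a and of 8.01% to 28.9% at those of miR-1. For miR-133b, counting error reached 20% to 100%, and its SD of 0.24 is held down by the pseudocount of 1, which exceeds most of its levels.

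**Figure D3:**
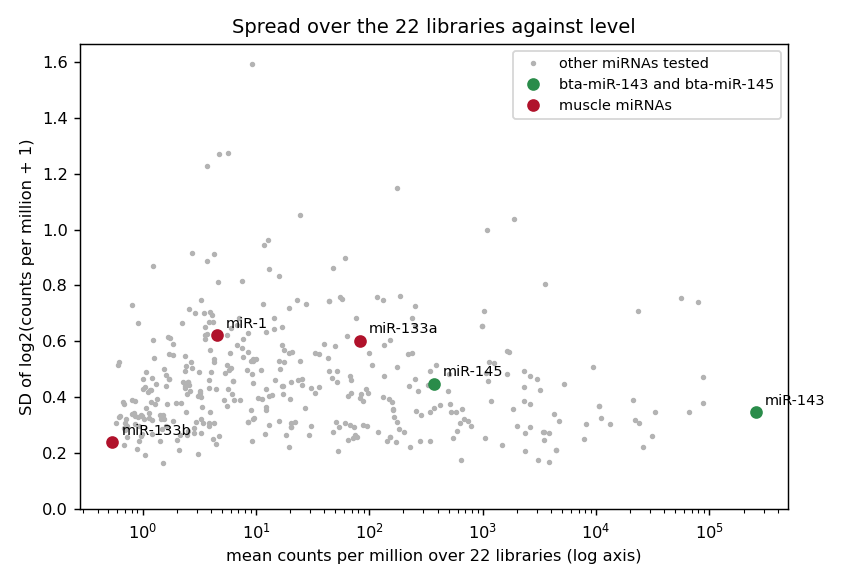
SD of log2(CPM + 1) over the 22 libraries (vertical axis) against mean CPM (horizontal axis, log scale). Grey points are the other miRNAs that passed the filter, red points the muscle miRNAs (miR-133b did not pass it) and green points miR-143 and miR-145, with miR-1 and miR-133a at 0.62 and 0.60, above the median of 0.42.

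MiR-1 and miR-133a varied together over the 22 libraries, a relation that did not pass adjustment over the means of cows. In the RefSeq annotation of the bovine assembly ARS-UCD2.0, MIR1-1 lies next to MIR133A-1, and MIR1-2 lies next to MIR133A-2, both inside the gene MIB1, and MIR133B lies next to MIR206. The counts do not tell the 2 copies of a miRNA apart. Over the 22 libraries, the miRNA most like miR-1 out of 387 was miR-133a, and the one most like miR-133a was miR-1, with a Spearman correlation of 0.80. This is a description, since the libraries include 2 from each cow and share the scaling to their totals. Of the other miRNAs that passed the filter, miR-100 (0.67) and miR-3120 (0.67) came next for miR-1, and miR-27b (0.64) and miR-3120 (0.60) for miR-133a, whose correlation with miR-133b, below the filter, was 0.69. For miR-133b the highest were miR-10174-3p (0.79), miR-193b (0.72) and miR-133a (0.69). The correlation of the 3 miRNAs with the total of the library lay between -0.08 and 0.03. Without cow 9615, over 20 libraries, miR-1 and miR-133a had a Spearman correlation of 0.83.

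Over the means of the 11 cows, r between miR-1 and miR-133a was 0.74 (permutation p = 0.0111) and rho was 0.65 (permutation p = 0.0379). With adjustment over all miRNAs compared with miR-1, neither passed (adjusted p = 0.719 and 0.681). Without the 2 cows farthest from the median of miR-1, r was 0.72, without the 2 farthest from that of miR-133a it was 0.53, and among the 6 MONT cows it was 0.61 (exact p = 0.186). MiR-1 with miR-133b gave r = 0.71 (permutation p = 0.0159, adjusted p = 0.719) and rho = 0.76 (permutation p = 0.00826, adjusted p = 0.681), 0.67 without the 2 farthest cows and 0.52 in MONT (exact p = 0.283). MiR-133a with miR-133b gave r = 0.65 (permutation p = 0.0365, adjusted p = 0.9995) and rho = 0.65 (permutation p = 0.0380, adjusted p = 0.995), 0.63 without the 2 farthest cows and 0.49 in MONT (exact p = 0.332). Without cow 9615, r over 10 cows was 0.84, 0.70 and 0.71 for these pairs (permutation p = 0.00312, 0.0255 and 0.0244), with adjusted p from 0.811 to 0.991. These adjustments run over all miRNAs compared with the miRNA named first in a pair. Over all miRNAs compared with miR-133b, r with miR-1 and miR-133a had adjusted permutation p of 0.347 and 0.375. Without cow 9615 both were 0.319. Of the 388 other miRNAs compared with each muscle miRNA in this way, 0 had an adjusted p of at most 0.05.

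The ratio of miR-133b to miR-133a did not vary detectably beyond counting error, at the low counts of miR-133b. Pooled over the libraries, there were 0.666 counts of miR-133b for each 100 of miR-133a, with 0.288 to 1.37 in single libraries, and the 95% interval of each of the 22 libraries held the pooled value. MiR-133c, whose gene overlaps MIR133A-1 in the RefSeq annotation, gave 0.168 per 100, also within the interval of 22 of 22 libraries, and was at 0 in 6 of them. How the reads shared by these near-identical miRNAs were assigned is not given in the sources used here, so the counts of miR-133b and miR-133c are uncertain. The ratio of miR-1 to miR-133a was 5.54 per 100 pooled and ran from 2.58 to 8.90, with 13 of 22 intervals holding the pooled value, so it varied by more than counting error.

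**Figure D4:**
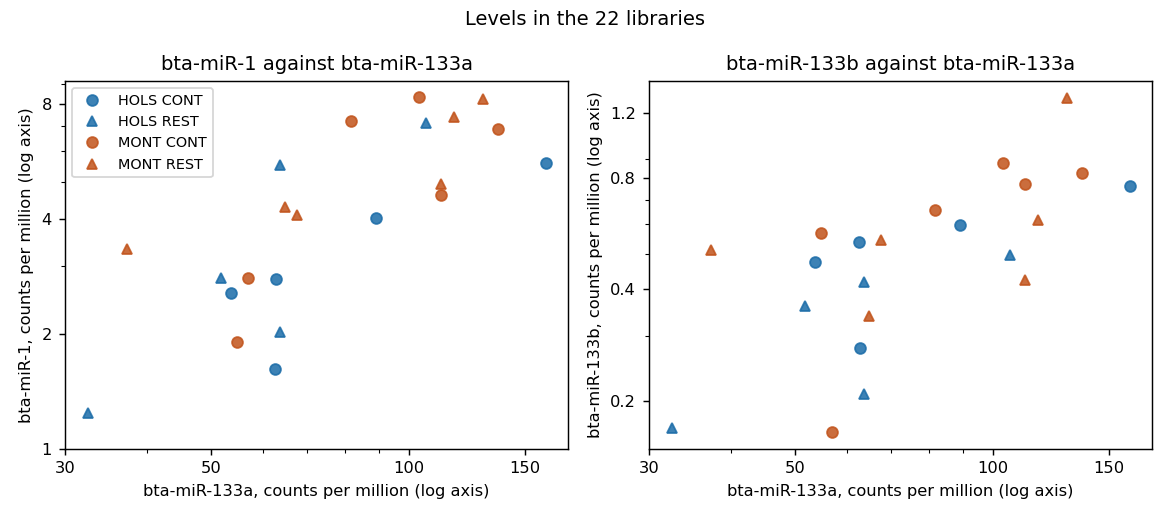
MiR-1 (left) and miR-133b (right) against miR-133a in the 22 libraries, in CPM on log axes, coloured by breed and shaped by period. MiR-1 rises with miR-133a (Spearman correlation 0.80), and miR-133b does so with more scatter (0.69), at 1 to 25 counts per library.

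Other miRNAs of muscle were compared by the lists of markers. Of 5 further striated muscle miRNAs, 4 had a row, and bta-miR-208a had no row of that name. MiR-208b, made from an intron of a slow myosin gene, was at 0 in 14 of 22 libraries and reached at most 4 counts, and miR-133c was at most 5 counts. MiR-499, made from an intron of another myosin gene, had a mean of 4.44 CPM, about that of miR-1, and miR-486, also abundant in red blood cells, had 3197 CPM. The Spearman correlation of miR-499 with miR-1, miR-133a and miR-133b over the 22 libraries was -0.44, -0.15 and -0.31, and that of miR-486 was -0.40, -0.32 and -0.55, so that neither rose with them. Without cow 9615, miR-499 had -0.32 with miR-133a. By edgeR without a block, 0 of the 2 tested miRNAs of this list passed the threshold in any of the 5 comparisons, in which 2.41%, 0%, 0%, 7.47% and 13.7% of all miRNAs did. In HOLS with a block for the cow, where 16.3% of all were called, miR-486 rose by 0.42 (SE 0.13, edgeR adjusted p = 0.0476) and miR-499 had a log2 fold change of -0.09.

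MiR-143 and miR-145, known from smooth muscle and other mesenchymal cells, are transcribed together. MiR-143 was the most abundant of the 796 miRNAs, with a mean of 255207 CPM and a range of 158607 to 425242 CPM, and miR-145 had 372 CPM. MiR-143 had a Spearman correlation of 0.63 with miR-1, 0.42 with miR-133a and 0.48 with miR-133b over the 22 libraries, while miR-145 had 0.10, -0.08 and 0.21. These values pool both breeds and both libraries of a cow. The mean of miR-143 was 187331 and 228342 CPM in HOLS CONT and REST, and 276961 and 312402 CPM in MONT. Over the means of the 11 cows, r of miR-143 with miR-1, miR-133a and miR-133b was 0.57, 0.33 and 0.66. The adjusted permutation p was 0.719, 0.9995 and 0.375. Among the 6 MONT cows, r was 0.31, -0.18 and 0.65 (exact p = 0.549, 0.721 and 0.1625). In HOLS, miR-143 had a log2 fold change of 0.45 (SE 0.13, edgeR adjusted p = 0.0738) and miR-145 one of 0.26 (SE 0.19), beside 0.32 for miR-1 and -0.31 for miR-133a. DESeq2 without a block called 1 of these 2 smooth muscle miRNAs up in HOLS, beside 26 of all 374 miRNAs. The study reports miR-143 as higher in REST in HOLS. With the cow as a block, which called 16.3% of all 374 miRNAs in HOLS, both miR-143 and miR-145 passed, and miR-1 and miR-133a did not. MiR-143 was then at 0.46 (SE 0.12, edgeR adjusted p = 0.0287) and miR-145 at 0.26 (SE 0.08, adjusted p = 0.0491). In MONT, miR-143 and miR-145 were at 0.23 (SE 0.21) and 0.16 (SE 0.29) and did not pass in either fit. A share of this size in one miRNA enters the total to which all CPM are scaled.

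The other lists of markers give reference levels. Their most abundant miRNAs were miR-141 of the epithelium (23203 CPM), miR-126-5p of the endothelium (25969 CPM), miR-199a-3p of fibroblasts (992 CPM), miR-142-5p of leukocytes (2334 CPM) and miR-451 of red blood cells (187 CPM), each above the 82.7 CPM of miR-133a. Of the 19 miRNAs of these 5 lists, all tested, none passed the threshold in HOLS by edgeR without a block. DESeq2, also without a block, called 1 leukocyte miRNA up and 2 epithelial ones down, beside 26 of all 374 miRNAs. Limma-voom called 1 epithelial miRNA down, and edgeR scaled by library size only called 2 down. The other filters and scalings and robust dispersions called 0. The study reports miR-200b and miR-200c as lower and miR-155 as higher in REST in HOLS. With the cow as a block 6 of 19 passed, beside 16.3% of all miRNAs. MiR-200b (-0.55), miR-200c (-0.43) and miR-429 (-0.28) of the epithelium fell, each of them lower in 5 of 5 HOLS cows. MiR-126-3p (0.31), miR-142-5p (0.33) and miR-155 (0.54) rose, being higher in 4, 3 and 4 of 5 HOLS cows by CPM. These are log2 fold changes with edgeR adjusted p of 0.0012 to 0.0476. The rest of the epithelial list, miR-200a (-0.14), miR-141 (0.0067) and miR-205 (0.10), did not pass (edgeR adjusted p of 0.31 to 0.98). Nor did miR-142-3p (0.12), which was lower in 4 of 5 HOLS cows by CPM. In MONT, miR-200b, miR-200c and miR-429 were lower in 5 of 6 cows by CPM. MiR-142-5p and miR-155 were higher in 5 of 6 MONT cows, and miR-126-3p was lower in 5 of 6. The 4 fibroblast miRNAs were higher in 5 of 6 MONT cows and in 2 or 3 of 5 HOLS cows. With all cows, none of the 19 passed in MONT, for the interaction or between the breeds in CONT, with or without the block. Between the breeds in REST 6 of 19 did without it, beside 13.7% of all miRNAs, and miR-1 and miR-133a did not. MiR-199a-3p (0.99), miR-199a-5p (0.997), miR-214 (1.19) and miR-205 (0.62) were higher in MONT, and miR-126-3p (-0.49) and miR-141 (-1.03) lower, as log2 fold changes with edgeR adjusted p of 0.0132 to 0.0494. Without cow 9615, edgeR called 46 of all miRNAs in MONT and 101 between the breeds in REST. The calls of the 19 in those fits are not given here. The summed level of the 4 fibroblast miRNAs was 813 to 1454 CPM in HOLS REST and 1087 to 4106 CPM in MONT REST, and that of the 3 muscle miRNAs was 34.0 to 114 and 41.2 to 139 CPM. Whether the cell makeup of the biopsies has a part in the levels of the muscle miRNAs was not tested.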

How the data were processed

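Small RNA of 22 mammary gland biopsies was prepared with TruSeq small RNA kits and sequenced by the authors (Illumina HiSeq, demultiplexed with bcl2fastq 2.17.1.14 in the submitters' processing notes). The authors trimmed reads, kept them by size, and used ncPRO-seq and miRDeep2 with the bovine genome and miRBase. The deposited counts are whole numbers per miRNA, without normalization. The deposited tables also hold the authors' normalized reads, means and comparisons (DESeq2 1.18.1), which were not used here. Both tables were joined on the miRNA name.

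Counts were tested with edgeR 4.0.16 (R 4.3.3): TMM, filterByExpr at its minimum of 10 counts, quasi-likelihood F tests and Benjamini-Hochberg adjustment over all miRNAs tested, with a threshold of 0.05. REST was compared with CONT within each breed, and the breeds and the interaction over all 22 libraries. CPM were computed from library totals, with a pseudocount of 1 before log2. Changes per cow were tested with exact sign flips and correlations with 100000 permutations (scipy 1.17.1). Totals per library of 6087865 to 18913916 counts set the counting intervals. The labels do not give a batch.

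A number in the labels names a cow, so both libraries of a number are from the same animal. Their deviations from the group means correlated with r from 0.30 to 0.53 in HOLS, and with 0.42, 0.74, 0.66, 0.08, 0.62 and -0.26 in MONT. The methods of the study name no block for the sequencing data, and edgeR with cow as a block was an alternative. The others were DESeq2 1.42.0, limma-voom (limma 3.58.1), other scalings and filters, robust dispersions, a pseudocount of 0.1 and each cow left out in turn. Correlations, levels and the fit of miR-133b without cow 9615 and the counts of the marker lists under each alternative were added after seeing the data. The scripts were tested on simulated data. The muscle miRNAs and the lists were chosen with earlier results of these data known. The miRNAs named are the muscle miRNAs, the 3 most like each of them, the most abundant of each list and those of a list past the threshold. The other miRNAs of the lists that are named with values were chosen after their values were seen.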

Additional observations from a re-analysis of the deposited data

Results flagged for a closer look

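MiR-133b of MONT cow 2614 in REST stood apart, at 1.32 CPM against 0.339 to 0.615 CPM in the other 5 MONT REST libraries. It was set apart by the gap to the nearest library, which took up 0.719 of the whole range of the group. The value rests on 25 counts, with an exact 95% interval of 0.855 to 1.95 CPM. MiR-133a and miR-1 were also highest in this library among the MONT REST libraries, at 129 and 8.25 CPM, but their gaps were not as wide. Groups were examined in this way 12 times (3 miRNAs in 4 groups), and chance is expected to give 0.6 such values.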

How the results depend on the processing

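The fold changes of miR-1 and miR-133a stayed below the threshold in all 5 comparisons under every alternative run. With the cow as a block, the log2 fold changes in HOLS were 0.23 for miR-1 (adjusted p = 0.631, edgeR) and -0.24 for miR-133a (0.408), in MONT 0.11 and -0.06, and for the interaction -0.05 and 0.23, so the block changed no call of the muscle miRNAs. The sign changed for miR-1 in MONT with a mean of at least 10 counts as the filter (-0.0102) and for miR-1 in the interaction with limma-voom (0.0739), and the cause was not tested. Scaling by library size only moved the median log2 fold change of all miRNAs from 0.02 to -0.15 in HOLS and from 0.06 to 0.16 between the breeds in REST.

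Leaving out each cow in turn, miR-1 and miR-133a ranged from -0.0252 to 0.57 and from -0.51 to -0.13 in HOLS, from -0.33 to 0.27 and from -0.32 to 0.0615 in MONT, from -0.65 to 0.0462 and from -0.0172 to 0.47 for the interaction, from 0.51 to 1.05 and from -0.13 to 0.54 between the breeds in CONT, and from 0.17 to 0.70 and from 0.17 to 0.54 in REST. The mean changes per cow of miR-1, miR-133a and miR-133b ranged from -0.17 to 0.34, from -0.57 to -0.15 and from -0.27 to -0.14 in HOLS, and from -0.23 to 0.29, from -0.35 to 0.12 and from -0.14 to 0.0352 in MONT.

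The number of all miRNAs past the threshold moved more. In HOLS it was 9 with edgeR, 61 with the cow as a block, 26 with DESeq2, 17 with limma-voom, 20 by library size only and 5 with no filter, and 3 to 14 without a cow. Between the breeds in CONT it was 29, and 15 with limma-voom, 14 with limma-voom and the cow as a random block, 16 with a mean of at least 10 counts, 3 by library size only, 3 with no filter and 0 to 31 without a cow. In REST it was 53, and 85 with DESeq2 and 16 to 101 without a cow. In MONT it was 0, and 46 without cow 9615. Depth limits miR-133b most, at 1 to 25 counts per library.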

Other observations

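The ratio of miR-1 to miR-133a was compared between the periods after its values had been seen. It was higher in REST in 9 of 11 cows, with a mean log2 change of 0.31 ± 0.45 (SD, n = 11) and an exact paired permutation p of 0.0439. In HOLS it was higher in 4 of 5 cows (0.43 ± 0.49, exact p = 0.125) and in MONT in 5 of 6 cows (0.22 ± 0.44, exact p = 0.219). Cows 8200, 9195 and 2614 had the largest changes (0.95, 0.86 and 0.88), and cows 1155 (-0.25) and 1652 (-0.41) went the other way. When each cow was left out in turn, the mean lay between 0.25 and 0.39 and the exact p between 0.00977 and 0.0879, with 3 of the 11 values at most 0.05, so the call was lost when any single cow but 1155, 1652 or 9615 was left out.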
